A study of Mus musculus with 12 samples.

Results

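The step from the 2-cell to the 4- to 8-cell mouse embryo was described from 4 of the 12 arrays of the series, the arrays titled as control embryos at day 2.5 (replicates 1 and 2) against those at day 1.5 (replicates 1 and 2). All embryos came from ICR mice, an outbred stock, and messenger RNA was measured on Affymetrix Mouse Genome 430 2.0 arrays. Control embryos, for which no agent is named, were 2-cell embryos at day 1.5, 4- to 8-cell embryos at day 2.5 and morulae to blastocysts at day 3.5. The other 3 groups, all of embryos treated with U0126 or released from it, entered through the shared estimate of the spread and, with the day 3.5 controls, through the choice of probe sets and of the genes tested. They were embryos held at 4 cells at day 2.5 by 20 µM U0126, which blocks MEK and so the activation of ERK, and embryos released from that arrest at day 3.5 (8-cell) and day 4.5 (morula to blastocyst). Each group had 2 arrays from what the series text calls 2 independent experiments. The labels do not say how many embryos were pooled or whether replicates were separate cultures, so the p-values rest on a spread between arrays that may be technical only. Day 2.5 control embryos span more than 1 cell stage, and their make-up within a sample is not given in the labels.

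Between these stages the mouse embryo passes from messages stored in the egg to messages made from its own genome. The egg's RNAs are deadenylated and degraded, and the embryonic genome is transcribed in a minor wave in the zygote and a major wave at the 2-cell stage, followed by a further rise of transcripts that prepares compaction and the making of an outer epithelium. The genes below are given by function, and for the lists of largest changes a set of genes was left aside: maternal, lineage and ERK response markers, and Vnn1, already known to change most in these data. All levels are log2(value + 1) of the deposited intensity, and a difference is the mean of the day 2.5 arrays minus that of the day 1.5 arrays, with the standard error (SE) of limma's fit. A gene rose or fell where the Benjamini-Hochberg adjusted p of limma's moderated test over all tested genes was under 0.05. Levels of different genes come from different probe sets and were not compared with each other.

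Of 18193 named genes, 9929 reached a level of 5 on at least 2 arrays and were tested, among them 686 that lay under 5 on all 4 compared arrays. The arrays of a group correlated across genes with r = 0.966 at day 1.5 and 0.977 at day 2.5, against 0.666 to 0.719 between the days, and the median SE of a difference was 0.35 log2 units. The stage labels held on marker genes: 7 of 7 tested oocyte and 2-cell markers were lower at day 2.5, and 10 of 12 markers of the 4-cell embryo to morula were higher and 0 lower. Most markers of other cells lay under a level of 5 on all 4 arrays: 11 of 12 for cumulus and granulosa cells, 8 of 10 for oviduct epithelium, 10 of 11 for sperm and 9 of 10 for blood. The exceptions were Amhr2, Ovgp1 and Sec14l3, Odf2 and Hba-a2. The log2 of the summed intensities of the cumulus and granulosa markers was 11.43 to 11.63 at day 1.5 and 10.28 to 10.48 at day 2.5. For sperm markers it was 10.96 to 11.50 and then 8.04 to 8.72. It lay between 6.95 and 7.53 for oviduct and between 6.53 and 7.29 for blood. The cumulus and granulosa sum was mostly Amhr2, at 11.59 and 11.38 and then 10.17 and 10.39. The sperm sum was mostly Odf2, at 10.89 and 11.46 and then 7.39 and 8.38. Both falls are therefore mainly those of 1 gene each. The part of other cell types in the results below was not tested. In such whole-embryo samples, fewer cells of a type and less RNA per cell cannot be told apart.

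A majority of tested genes moved in this step, in balanced numbers but not with balanced sizes. The arrays were normalized against each other and came from a set amount of total RNA, so a gain or loss of total mRNA could not show. The balance and the median difference may be set in part by that normalization. Of 9929 genes, 5505 (55.4%) passed the test, 2785 (28%) higher and 2720 (27.4%) lower at day 2.5, and the median difference of all tested genes was 0.09. Falls reached further than rises. A difference of at least 6 log2 units was found for 78 genes that fell and 11 that rose, and 1 of 4 to 6 units for 314 that fell and 141 that rose. Smaller changes of 1 to 2 units were more frequent among rising genes, with 1360 against 1045. The arrays of the 2 days did not overlap for 77.1% of tested genes, so a lack of overlap alone set few genes apart.

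A small set of genes crossed the whole range from near background to a clear signal, or back. With off defined as a level under 5 on both arrays and on as at least 8 on both, 68 genes (0.685%) were switched on and 141 (1.42%) were switched off. These counts describe levels and carry no test, since the same arrays chose the genes. The median level of the switched-on genes was 3.88 at day 1.5, 8.68 at day 2.5 and 9.28 at day 3.5, and 53 of the 68 were at 8 or more on both day 3.5 arrays. The median of the switched-off genes went from 9.23 to 3.92 and then 3.52. Of the 141, 0 were back at 8 on both day 3.5 arrays and 117 were under 5 there. Only 4 of the switched-on and 19 of the switched-off genes were among the set-aside genes. Near the limits, 44 of the 68 and 62 of the 141 lay within 0.5 log2 units inside a threshold, and 95 and 133 further genes lay within 0.5 units outside. The counts therefore follow the thresholds, at 374 and 509 with off under 6 and on at least 7. Without replicate 1 of day 1.5 there were 106 switched-on genes, and with the mean of all probe sets of a gene 37.

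**Figure D1:**
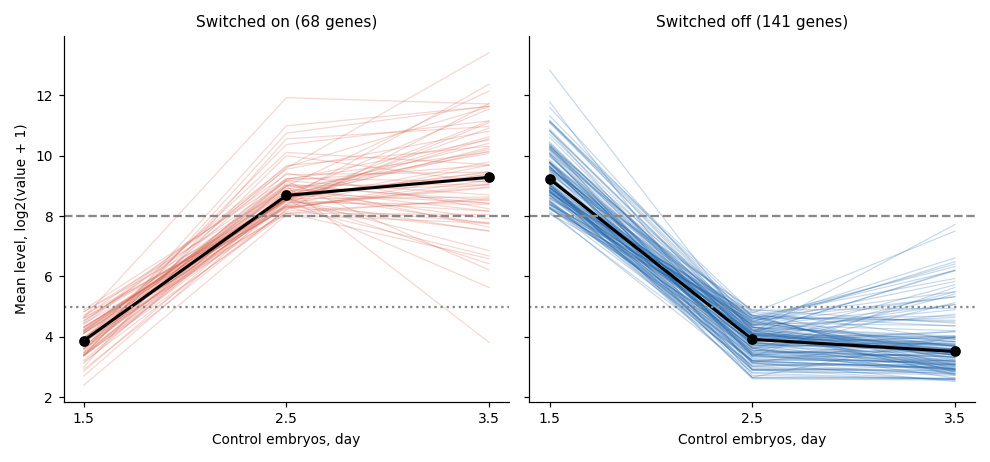
Mean log2 level (y axis, log2(value + 1)) of each switched-on (left, 68 genes) and switched-off gene (right, 141 genes) in control embryos at day 1.5, 2.5 and 3.5 (x axis), 1 thin line per gene and the median in black; dotted and dashed lines mark the levels 5 and 8. The median of the left panel goes from 3.88 to 8.68 and 9.28, and that of the right panel from 9.23 to 3.92 and 3.52.

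The promoters of these genes were read from RefSeq's table for build GRCm38.p6, 250 bases before to 50 after the start, which held 51 of the 68 switched-on and 114 of the 141 switched-off genes and 8156 of the 9929 tested. The motifs below were searched on both strands. The TATA box was searched as TATAAA, the core bound by ETS factors as CCGGAAG, and the binding site of SP1 and its relatives, called GC box, as GGGCGG. The letters of the CCAAT box are its name, and the E-box was taken in its form for MYC and USF, which is CACGTG. The cAMP response element was TGACGTCA, the core of NRF1 GCATGCGC, the site of the Nr5a and Esrr receptors TCAAGGTCA, the AP-2 site GCCNNNGGC and the YY1 core AAGATGGCG. The TEAD site was searched as GGAATG. The CCAAT box can lie inside an AP-2 site. TATAAA was found in 9 of the 51 switched-on promoters (17.6%) and 12 of the 114 switched-off promoters (10.5%), against 6.65% of the promoters of all tested genes. The TEAD site was in 21.6% of switched-on, 14% of switched-off and 11.4% of all tested promoters. The ETS core was in 11.8% of switched-on and 5.26% of switched-off promoters against 20.1% of all tested. CCAAT was in 45.6% of switched-off and 27.5% of switched-on promoters against 39.6% of all tested. The GC box was in 62.7% of switched-on and 47.4% of switched-off promoters against 65.8% of all tested. The AP-2 site was in 29.4% and 17.5% against 25.7%. Over all 27025 genes with a promoter, tested or not, 14.2% held TATAAA and 14.6% the TEAD site. The median GC content was 61.3% for switched-on, 57.5% for switched-off and 61% for all tested promoters. These shares carry no test, and a match is a description and not a binding site.

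The 150 bases before the start are shown for 3 genes that switched on and 2 that switched off, because their letters differ in the features counted above. They do not stand for all switched genes. The same window of Kpna7, switched off, holds 0 matches, and that of Stx3, switched on, only 1, a TATA box on the other strand. Capitals mark matches to the listed motifs on either strand, and each line runs 5′ to 3′ on the gene's strand in build GRCm38.p6. Anxa2 (chr9:69453533-69453682, plus strand) holds 2 GC boxes and a TATA box. Acadl (chr1:66863310-66863459, minus strand) holds 4 GC boxes and no TATA box in this window. Enpep (chr3:129332750-129332899, minus strand) holds a CCAAT box and a TATA box, both on the other strand. Of the switched-off genes, Oas1c (chr5:120812515-120812664, minus strand) holds an AP-2 site with a CCAAT box inside it, and Esrrg (chr1:187608856-187609005, plus strand) a TEAD site and a TATA box on the other strand.
Anxa2: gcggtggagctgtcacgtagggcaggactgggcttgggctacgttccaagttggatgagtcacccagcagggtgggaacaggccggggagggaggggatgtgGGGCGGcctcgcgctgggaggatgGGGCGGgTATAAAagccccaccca
Acadl: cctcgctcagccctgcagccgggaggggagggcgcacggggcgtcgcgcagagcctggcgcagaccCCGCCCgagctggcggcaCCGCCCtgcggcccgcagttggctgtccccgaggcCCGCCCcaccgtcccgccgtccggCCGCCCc
Enpep: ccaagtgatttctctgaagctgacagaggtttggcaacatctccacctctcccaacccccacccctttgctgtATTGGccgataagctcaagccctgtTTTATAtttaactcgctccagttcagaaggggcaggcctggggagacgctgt
Oas1c: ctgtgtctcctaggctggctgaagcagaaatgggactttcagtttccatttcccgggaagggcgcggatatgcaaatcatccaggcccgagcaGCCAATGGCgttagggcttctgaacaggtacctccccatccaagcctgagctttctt
Esrrg: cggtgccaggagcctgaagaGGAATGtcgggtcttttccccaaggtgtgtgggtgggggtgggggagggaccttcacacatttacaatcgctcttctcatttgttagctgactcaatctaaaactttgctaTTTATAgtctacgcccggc

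The largest rises outside the set-aside genes were led by Smpdl3a, Epas1, Fbp2 and Acadl. Acadl, a mitochondrial enzyme of long-chain fatty acid oxidation, stood at 4.96 and 4.33 on the day 1.5 arrays and at 12.04 and 11.80 on the day 2.5 arrays. Fbp2, a fructose bisphosphatase that acts against glycolysis, went from 3.76 and 2.96 to 11.13 and 10.36. Both were near background at 2 cells and clearly above it in 4- to 8-cell embryos. A lack of overlap between the days was required for this ranking. Since the low side carries little signal, the rise is also given as a bound counted from a level of 5: 7.28 ± 0.30 (SE), at least 6.92, for Acadl and 7.38 ± 0.39, at least 5.75, for Fbp2, with limma's adjusted p of 1.1e-07 and 3.0e-07. Smpdl3a, a secreted phosphodiesterase related to acid sphingomyelinase, had the largest fitted rise outside the set-aside genes (7.56 ± 0.36, at least 5.56). Epas1, which encodes the oxygen-regulated factor HIF-2α, stood at 3.0 and 3.98 and then at 11.05 and 10.92 (7.50 ± 0.34, at least 5.99). For these 4 genes the second control step, day 3.5 minus day 2.5, was between -0.21 and 0.90 and did not pass.

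Several further genes among the largest rises encode proteins of the cell surface or matrix. Ccn2, a secreted matricellular protein and a known target of YAP and TEAD, was at 3.96 and 2.88 and then at 10.12 and 9.88 (6.58 ± 0.35, at least 5.0). Nid1, which links laminin and collagen IV in basement membranes, rose by 6.23 ± 0.30 (at least 5.11), and Mpzl2, an adhesion protein with an immunoglobulin domain, by 6.75 ± 0.26 (at least 5.37). That their arrays did not overlap between the days was a condition of the ranking and adds nothing for these 3 genes. Stx3, a syntaxin of apical membrane fusion, rose by 5.70 ± 0.36 and Tspan1, a tetraspanin, by 5.94 ± 0.62. Enpep, a glutamyl aminopeptidase of the cell surface, differed in its course: from 3.06 and 3.18 it rose to 9.61 and 8.36 and again to 12.40 and 11.89 at day 3.5. Its second step was 3.15 log2 units (adjusted p 0.0033, limma), and its first, counted from a level of 5, was at least 3.99. The fitted steps differed by 2.71, a value that rests on day 1.5 levels near background. No test is given for it, since the first step chose this gene. Rragd, a Rag GTPase of mTORC1 control at the lysosome, and Lasp1, an actin-binding LIM protein, were detected at 2 cells and rose by 6.37 ± 0.28 and 6.08 ± 0.47.

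The largest falls outside the set-aside genes ended near background, and 6 of the set-aside genes fell further. Ipcef1, which binds cytohesin exchange factors, stood at 9.92 and 10.80 at 2 cells and at 2.72 and 2.74 in 4- to 8-cell embryos (-7.63 ± 0.56, a fall of at least 5.36 counted to a level of 5). Bnc1, the zinc finger protein basonuclin 1, went from 9.73 and 10.42 to 3.02 and 3.24, and Pld1, a phospholipase D, from 11.81 and 12.27 to 4.45 and 5.88. As for the rises, this ranking required that the arrays of the 2 days did not overlap. Rgs17, which speeds GTP hydrolysis on G protein alpha subunits, fell by 6.84 log2 units and Tmprss11a, a membrane serine protease, by 6.80. Sspn, which encodes sarcospan of the dystrophin complex, fell by 6.74, and Mllt3, a YEATS-domain reader of acylated histones, by 6.65. Among the 12 largest falls, AA545190, Gm10857, Gm29811 and Gm1965 have only database names. Dnajb4, an HSP40 co-chaperone, fell from 9.83 and 10.67 to 3.52 and 3.17 and then partly returned, to 5.91 and 5.36 at day 3.5 (second step 2.29, adjusted p 0.012, limma). Mllt11 did likewise, with a fall of 6.70 and a return of 1.82 (adjusted p 0.031).

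**Figure D2:**
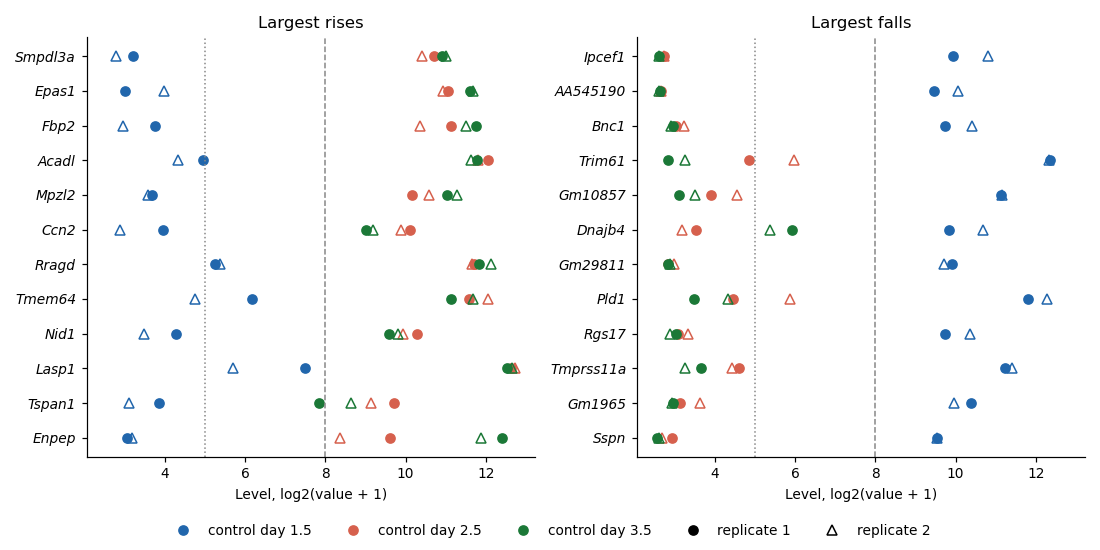
Log2 level (x axis, log2(value + 1)) on each control array for the 12 largest rises (left) and 12 largest falls (right) that passed with no overlap, set-aside genes left out; colours give the day, circles replicate 1 and triangles replicate 2, and vertical lines mark the levels 5 and 8. Acadl is at 4.96 and 4.33 at day 1.5 and at 12.04 and 11.80 at day 2.5, and Ipcef1 goes from 9.92 and 10.80 to 2.72 and 2.74.

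To describe pathways, 59 lists of genes with 2064 entries were used, of which 1335 different genes were tested. Of these 1335, 402 rose and 356 fell, near the shares of all genes. Among lists with at least 15 tested genes, mitochondrial import, entry into the endoplasmic reticulum and tRNA charging had the highest shares of rising members, and G protein subunits, the SUMO pathway and meiosis the highest shares of falling members. A further 533 list members on the array lay below the filter, so each count covers tested members only. Each count below is to be read beside the 28% of all tested genes that rose and the 27.4% that fell.

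**Figure D3:**
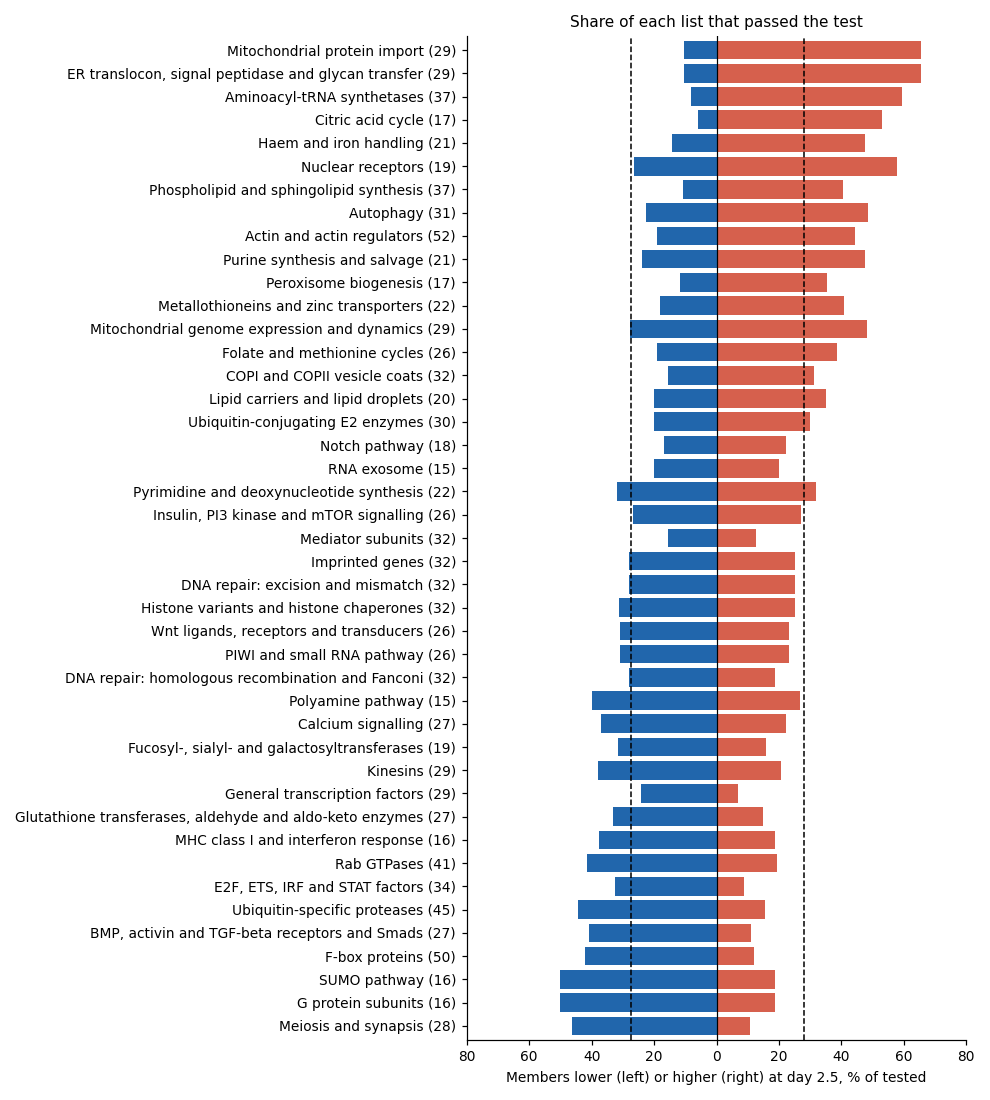
Share of tested members (x axis, percent) that were lower (blue, left) or higher (red, right) at day 2.5 in each list with at least 15 tested genes, with the number tested in parentheses and dashed lines at the shares of all tested genes (27.4% and 28%). Mitochondrial protein import is at the top with 65.5% higher, and meiosis and synapsis at the bottom with 46.4% lower.

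Genes that charge transfer RNAs rose more often than they fell. Of 37 tested aminoacyl-tRNA synthetases and their scaffold proteins, 22 rose and 3 fell, with a median difference of 1.07 against 0.09 for all genes. Without replicate 1 of day 2.5, 14 rose, and without replicate 1 of day 1.5 or replicate 2 of day 2.5, 1 fell. Aimp1, a scaffold of the multisynthetase complex, was at 7.15 and 4.61 at day 1.5 and at 10.26 and 9.65 at day 2.5 (4.08 ± 0.69, adjusted p 5.0e-04, limma). Mars1, the cytosolic enzyme for methionine, rose by 2.77 ± 0.38, and Lars, for leucine, by 2.62 ± 0.25. Wars2, the mitochondrial enzyme for tryptophan, rose by 3.80 ± 0.60. Iars, for isoleucine, went against this direction, at 11.49 and 11.46 and then 10.31 and 10.15 (-1.24 ± 0.26). The mitochondrial enzyme for phenylalanine, Fars2, fell by 2.81, a call that was lost without replicate 1 of day 1.5 or replicate 2 of day 2.5 (-2.14 and -2.02).

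The endoplasmic reticulum entry route had one of the highest rising shares. In the list of translocon, signal peptidase and glycan transfer genes, 19 of 29 rose and 3 fell (median difference 1.22). Spcs3, a subunit of signal peptidase, was at 2.47 and 3.39 and then at 8.20 and 8.24, a rise of 5.29 ± 0.34 (at least 3.22) that put it among the switched-on genes. Its partners Spcs1 and Spcs2 rose by 1.39 and 2.28. The oligosaccharyltransferase subunits Rpn1 and Rpn2 rose by 2.75 ± 0.28 and 2.82 ± 0.52, and Ssr4 of the translocon-associated complex by 2.85 ± 0.43. The catalytic subunits of that transferase split: Stt3a rose by 1.20 ± 0.30, while Stt3b was at 13.26 and 13.74 and then at 11.91 and 12.04 (-1.52 ± 0.29). Tram1, a translocon helper, fell by 2.52 ± 0.29. Coat proteins of vesicles moved less as a list, with 10 of 32 higher and 5 lower. Tmed7, a cargo receptor of these coats, was switched on (4.81 and 4.85, then 9.01 and 8.78), whereas its relative Tmed10 fell by 2.49 ± 0.43 and rose again by 1.61 at day 3.5.

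In mitochondrial import 19 of 29 genes rose and 3 fell, with a median of 1.52. The outer membrane proteins Mtx1 and Mtx2, metaxins, went from 6.95 and 6.76 to 9.99 and 9.84 and from 5.53 and 5.22 to 8.87 and 8.78. The import receptor Tomm70a rose by 2.75 ± 0.26 and Timm13, a small chaperone of the intermembrane space, by 2.81 ± 0.44. Timm21, an accessory subunit of the inner membrane translocase, was switched off instead, from 8.60 and 8.44 to 2.71 and 4.29 (-5.02 ± 0.64, a fall of at least 3.52). The receptor Tomm20 and the channel Timm23 differed by -0.19 and 0.26 and did not pass.

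In the citric acid cycle, 9 of 17 genes rose and 1 fell. The gene that fell encodes its entry enzyme: Cs, citrate synthase, stood at 13.08 and 13.64 and then at 10.61 and 10.59 (-2.76 ± 0.28, adjusted p 1.8e-05, limma). Suclg1, the alpha subunit of succinyl-CoA ligase, rose most, from 5.70 and 5.11 to 9.54 and 8.99. The subunits of isocitrate dehydrogenase moved apart in time, with Idh3b up by 2.53 ± 0.24 and Idh3g by 1.41 ± 0.25 in this step, and Idh3a at 0.75 (adjusted p 0.068) here but up by 2.67 in the next. Genes that express the mitochondrial genome and shape the organelle counted 14 higher and 8 lower of 29, with 9 higher without replicate 1 of day 1.5 or replicate 2 of day 2.5 and 5 lower without replicate 1 of day 2.5. Lrpprc, which stabilises mitochondrial messages, rose by 3.30 ± 0.32, the elongation factor Tufm by 2.93 ± 0.56 and the packaging factor Tfam by 2.24 ± 0.28. The falls named by the rule were the inner membrane fusion GTPase Opa1 (2.50), the fission receptor Mff (1.74), the fusion protein Mfn2 (1.67) and the fission GTPase Dnm1l (1.33). The rule picks the largest changes, so these genes do not show how expression or shaping genes moved as groups. Mfn1, the relative of Mfn2, rose by 0.66 (adjusted p 0.032).

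In the list of pantothenate and coenzyme A genes 8 of 11 rose and 1 fell (median 1.80). Vnn1, a pantetheinase that releases pantothenate, had the largest rise of all tested genes, from 5.2 and 3.23 to 13.14 and 13.37 (9.04 ± 0.51). The pantothenate kinases, which open the pathway, did not move as a family. Pank1 was at 4.41 and 3.54 and then at 6.35 and 7.58 (2.99 ± 0.47), and Pank2 at 8.83 and 8.56 and then at 5.92 and 6.72 (-2.38 ± 0.37). Pank3 differed by 0.71 (adjusted p 0.054), and passed under some alternatives (adjusted p 0.028 with the replicate block). Pank4 rose by 1.07 but lay under 5 on all 4 arrays, and its call was lost in the fits of the 4 or 6 control arrays alone, with a pseudocount of 16, with no filter, and without replicate 1 of either day (0.59 and 0.83). Aasdhppt, which transfers the phosphopantetheine arm to carrier proteins, rose by 3.32 ± 0.35.

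Genes of the folate and methionine cycles moved in both directions, 10 higher and 5 lower of 26. Bhmt, which remethylates homocysteine with betaine, stood at 9.65 and 8.65 and then at 14.18 on both arrays, where it stayed at 14.31 and 14.51 at day 3.5 (5.03 ± 0.35). Ahcy, which clears S-adenosylhomocysteine, was switched on, from 3.85 and 4.77 to 8.55 and 8.78. Slc46a1, a proton-coupled folate transporter, rose by 4.12 ± 0.34. The genes that fell included Mat2b, the regulatory subunit of methionine adenosyltransferase (-3.18 ± 0.36), and Mthfd2, a mitochondrial folate enzyme (-3.09 ± 0.51). In the polyamine pathway 4 of 15 rose (7 with the replicate block) and 6 fell. Its arginases split: Arg1 was at 6.90 and 6.54 and then at 9.62 and 8.93, and Arg2 at 6.75 and 7.26 and then at 3.56 and 3.29. Azin1, which frees ornithine decarboxylase from its inhibitor, rose by 1.63 ± 0.26, and the inhibitor genes Oaz1 and Oaz2 fell by 0.83 and 1.62. Ornithine decarboxylase itself, Odc1, differed by 0.63 (adjusted p 0.077). The call of Azin1 was lost with the mean of all its probe sets (0.16), and that of Oaz1 without any 1 of the 4 arrays (-0.90 to -0.77) or with centred arrays (-0.78).

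Nucleotide genes split likewise. Of 21 purine genes 10 rose and 5 fell (3 without replicate 1 of day 1.5), and of 22 pyrimidine and deoxynucleotide genes 7 rose and 7 fell. Ak4, a mitochondrial adenylate kinase, rose from 7.60 and 7.29 to 11.68 and 11.59 (4.19 ± 0.24). Rrm2b, the small subunit of ribonucleotide reductase used outside S phase, was at 11.92 and 12.17 and then at 7.18 and 8.18 (-4.36 ± 0.37). Its S phase counterpart Rrm2 was at 11.92 and 11.87 and then at 12.53 and 12.82 (0.78 ± 0.23, adjusted p 0.014), and the large subunit Rrm1 rose by 1.67. Thymidylate synthase, Tyms, rose by 2.14. Adk, adenosine kinase, fell by 4.16, but another of its probe sets was called in the opposite direction.

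Genes for uptake of lipids and metals also changed. Lrp2, the endocytic receptor megalin, was at 2.98 and 3.13, then at 9.25 and 7.83, and then at 12.54 and 11.95. Its rise in the first step was 5.48 ± 0.43 (at least 3.54) and in the second 3.71. Lrpap1, the chaperone of this receptor family, was already at 8.51 on both day 1.5 arrays and rose to 13.25 and 13.16 (4.70 ± 0.24). Cd36, a fatty acid carrier of the membrane, fell from 6.96 and 8.48 to 3.38 and 3.27, and Fabp3, a fatty acid binding protein, rose by 3.66. The list of lipid carriers and droplets held 7 higher (4 without replicate 1 of day 2.5) and 4 lower of 20, and phospholipid and sphingolipid synthesis 15 higher and 4 lower of 37 (1 lower without replicate 2 of day 1.5, 7 with the mean of all probe sets), led by the acyltransferase Agpat2 (3.54). Of 21 haem and iron genes 10 rose and 3 fell, among them the haem enzymes Alad (2.68) and Cpox (2.45). Of 22 metallothioneins and zinc transporters 9 rose and 4 fell (2 without either array of day 2.5 or with a filter at 7), and the importer Slc39a2 went from 2.90 and 2.93 to 7.44 and 6.93. In peroxisomes 6 of 17 rose and 2 fell, with catalase, Cat, higher by 2.87.

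**Figure D4:**
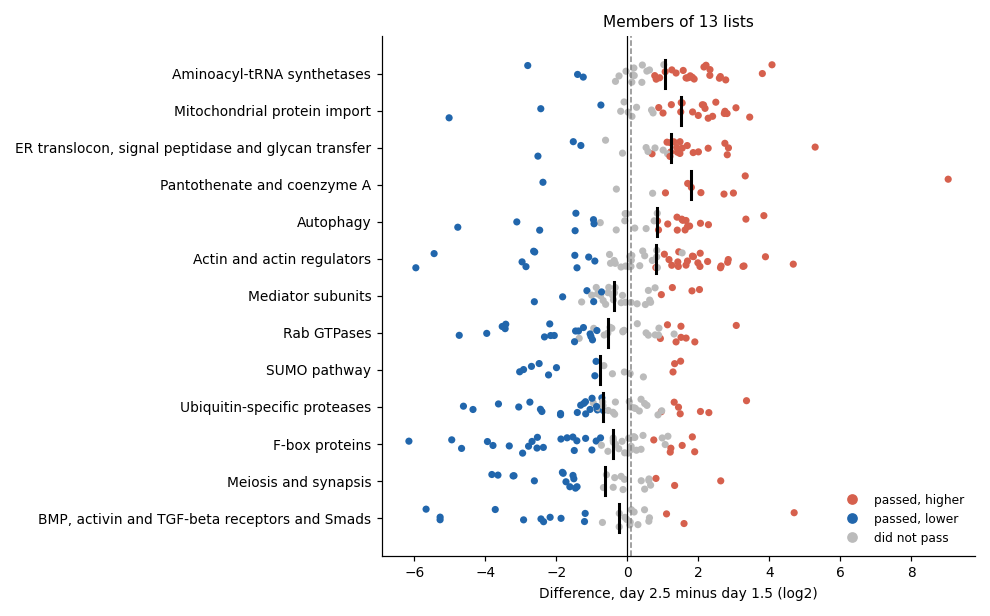
Difference of each tested member (x axis, log2, day 2.5 minus day 1.5) in 13 lists; red passed higher, blue passed lower, grey did not pass, the black bar is the median of the list and the dashed line the median of all tested genes (0.09). Medians run from 1.80 for pantothenate and coenzyme A and 1.52 for mitochondrial import to -0.77 for the SUMO pathway.

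Membrane traffic genes diverged by family. Of 41 Rab GTPases, the switches that direct vesicles, 17 fell and 8 rose (median -0.55). The rising count was 4 without replicate 2 of day 1.5 or with the mean of all probe sets, and 5 without replicate 1 of day 2.5. Rab3d, of regulated secretion, went from 9.51 and 9.84 to 4.65 and 5.22. Rab4a, of rapid recycling from early endosomes, went from 7.51 and 8.47 to 4.08 and 3.97, and returned to 6.41 and 6.11 at day 3.5. Its first step was -3.96 and its second 2.23, and these differed by -6.19. Since the first step chose this gene, no test is given for that difference. Rab28 rose by 3.07 ± 0.33. Among 31 autophagy genes 15 rose, 8 without replicate 1 of day 2.5, and 7 fell. Gabarapl1, a protein conjugated to the autophagosome membrane, was at 3.16 and 3.21 and then at 7.10 and 6.96. Sqstm1, the cargo receptor p62, was at 5.47 and 4.83 and then at 9.30 and 7.69 (3.34 ± 0.81), a call lost without replicate 1 of day 2.5 (2.54). Atg5, of the conjugation system, fell by 3.11 ± 0.44 and Uvrag, a partner of Beclin 1, from 9.39 and 9.86 to 4.57 and 5.12. The kinases that start the process split, with Ulk1 higher by 1.63 and Ulk2 at -2.47.

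In the cytoskeleton, actin genes rose more often than they fell, and 0 tubulins passed upward. Of 52 actin genes and regulators 23 rose and 10 fell (median 0.82), and 3 of 11 tubulins fell. Gamma-actin, Actg1, was at 9.90 and 9.53 and then at 13.14 and 12.86. Diaph2, a formin, went from 3.14 and 3.01 to 7.75 on both arrays, and the tropomyosin Tpm4 and the ARP2/3 subunit Arpc5 rose by 3.89 ± 0.31 and 3.26 ± 0.27. Lack of overlap between the days was a condition for naming the largest changes of a list. Fmn2, the formin of spindle positioning in the oocyte, fell from 8.73 and 9.26 to 3.09 and 2.99, and Vil1, villin of microvilli, from 9.24 and 9.66 to 4.14 and 3.87. Profilins and cofilins each had a member in either direction: Pfn1 rose by 1.69 and Cfl1 by 1.25, while Pfn2 fell by 2.97 and Cfl2 by 0.92. Tubg2, a gamma-tubulin, was switched off, at 9.01 and 8.80 and then at 3.28 and 3.13, while the ubiquitous Tubg1 differed by -0.44 and did not pass. Of 29 kinesins 11 fell (7 with a filter at 7) and 6 rose (3 without replicate 1 of day 1.5 or replicate 2 of day 2.5, or with the mean of all probe sets), and Kif17, a motor of transport along microtubules, fell from 8.92 and 10.34 to 3.08 and 3.82.

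Among genes of the cell surface, the transcripts for the 2 partners of the annexin A2 complex rose together. Anxa2, which binds membranes in the presence of calcium, stood at 3.28 and 3.48, then at 8.53 and 8.47, and at 10.95 and 10.87 at day 3.5. S100a10, its partner in a heterotetramer, stood at 3.84 and 4.80, then at 8.33 and 8.81, and at 10.47 and 10.07. Both were switched on in this step and rose again in the second, by 2.41 and 1.70. Counted from a level of 5, their first steps were at least 3.50 and 3.57. The fitted steps differed by 2.70 and 2.55, values that rest on day 1.5 levels near background. No test is given for them, since the first step chose these genes. Of 13 tested annexins and S100 proteins 6 rose and 3 fell, while 12 more on the array lay below the filter. Cd9, a tetraspanin, rose by 3.85 ± 0.55, and 5 of 14 tetraspanins rose and 3 fell (1 without replicate 2 of day 1.5, in the fit of the 4 compared arrays alone or with a filter at 7). Of 12 integrins 5 rose (2 with the mean of all probe sets) and 5 fell (3 with a filter at 7). Itgb1, the common beta chain, rose from 4.34 and 5.52 to 8.06 and 7.49, together with Itga3, Itgb5 and Itgav, the last not with the mean of all its probe sets (0.05), while the alpha chains Itga6, Itga9, Itga10 and Itga8 fell, the last by 4.50. Of 12 connexins and desmosome proteins 4 rose, Dsp, Dsg2, Gja1 and Pkp2, by 1.94 to 3.04 log2 units, and 3 fell, Pkp4, Gja3 and Dsc2, by 2.09, 1.47 and 1.36. Among 19 enzymes that finish surface glycans 6 fell and 3 rose: St6gal1, a sialyltransferase, went from 8.43 and 8.42 to 2.95 and 3.49, and the galactosyltransferases B4galt4 and B4galt6 fell by 4.56 and 4.07 while B4galt1 rose by 2.67.

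Among signalling genes, 4 ligands of the TGF-beta family had the largest falls of their list. In the list of BMP, activin and TGF-beta genes 11 of 27 fell and 3 rose. Bmp5 went from 8.94 and 9.11 to 3.76 and 3.74 and Bmp6 from 9.57 and 9.61 to 3.84 and 4.79, both switched off. Tgfb2 fell by 5.67 ± 0.72 and Tgfb3 by 3.72. The 3 that rose were Id3, an inhibitor of helix-loop-helix factors and a BMP target, the common mediator Smad4 (1.60) and the receptor Tgfbr1 (1.10, and 0.01 with the mean of all its probe sets). Id3 was at 3.26 and 3.75, then at 8.72 and 7.68, and then at 5.74 and 5.70. Its steps of 4.70 and -2.48 differed by 7.18, with no test given because Id3 was chosen on the first step. Of 16 G protein subunits 8 fell and 3 rose (1 without replicate 1 of day 1.5, 0 with the mean of all probe sets), with Gnb4 down from 7.82 and 7.96 to 3.99 and 3.90 and Gng2 up by 2.95.

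Calcium genes changed by isoform, 6 higher and 10 lower of 27. Plcd1, a phospholipase C, was switched on (3.71 and 3.84, then 9.17 and 8.97), and Plcg1 and Plcd3 rose by 3.40 ± 0.26 and 3.16 ± 0.41. Plce1, another phospholipase C, went from 7.71 and 8.23 to 3.19 and 3.10. Orai1, the pore of store-operated calcium entry, fell from 8.13 and 8.35 to 4.41 and 4.40, the inositol trisphosphate receptor Itpr2 fell by 3.33 and the T-type channel Cacna1h by 4.14. The sensor that opens Orai1, Stim1, rose by 1.10 ± 0.26. In the Notch list 4 of 18 rose (2 with the mean of all probe sets) and 3 fell. Hes1, a repressor downstream of Notch, went from 3.89 and 4.57 to 8.88 and 8.70, and Rbpj, the DNA-binding partner of Notch, rose by 3.98 ± 0.52, while the ligand Jag1 fell by 3.27 and the target Hey1 by 2.55. In the Wnt list 6 of 26 rose (3 without replicate 2 of day 1.5) and 8 fell, and 5 fell without replicate 2 of either day, with a filter at 7 or with the mean of all probe sets. Sfrp1, a secreted Wnt antagonist, was switched on (3.71 and 4.25, then 8.47 and 8.15), and Axin2, a feedback target of the pathway, fell from 8.75 and 9.57 to 5.36 and 4.82. The list of insulin, PI3 kinase and mTOR genes held 7 higher (3 without replicate 2 of day 1.5 or replicate 1 of day 2.5) and 7 lower of 26, with Eif4ebp1, a repressor of translation, up by 3.75.

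Nuclear receptors were the family of transcription factors with the highest share of rising members, 11 of 19 with 5 lower (median 1.27; 3 lower with a filter at 7, 1 with the mean of all probe sets). The 11 became 7 without replicate 2 of day 1.5, without replicate 1 of day 2.5 or with no filter. With a filter at 7 or the mean of all probe sets 6 rose, and that mean left Nr1d2 at -0.0529. Rxrb, a common dimer partner, was at 5.57 and 5.41 and then at 8.62 and 8.27, and Rxra rose by 1.46. The estrogen-related receptors split: Esrra rose by 1.85, and Esrrg was switched off, from 9.21 and 8.83 to 3.21 and 3.26. Nr6a1, the germ cell nuclear factor, fell by 1.85. In the second step 0 of the 19 were higher and 7 lower at day 3.5 than at day 2.5, beside 13.3% higher and 8.28% lower of all tested genes. Both steps use the same day 2.5 arrays, and the difference between them passed for 13 of the 19, beside 37.5% of all genes.

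Of 34 E2F, ETS, IRF and STAT genes 11 fell (7 with a filter at 7 or the mean of all probe sets) and 3 rose (5 without either array of day 2.5, 8 with the replicate block). Of 13 tested forkhead factors 2 rose and 4 fell (7 with the mean of all probe sets), and of 8 Sox factors 3 rose and 1 fell (0 without replicate 1 of day 2.5). E2f5, a repressive E2F, went from 12.28 and 12.09 to 6.53 and 6.09 and Stat4 from 8.51 and 7.98 to 2.77 and 2.73, whereas the ETS repressor Etv3 was switched on (3.74 and 3.98, then 8.25 and 8.07). Of 29 general transcription factors 7 fell and 2 rose (1 without replicate 2 of day 1.5 or either array of day 2.5). Those that fell most were subunits of TFIID or its relatives: Taf9b was switched off (9.55 and 9.70, then 3.61 and 3.43), and Taf3, Taf5 and Taf4 fell by 3.72, 2.76 and 2.44. Of 32 subunits of Mediator, which links activators to polymerase, 4 rose and 5 fell, against 7 and 10 with the replicate block and 10 falling with the mean of all probe sets. Several factors peaked at day 2.5. Foxa1, a pioneer factor of endoderm, was at 7.77 and 7.26, then at 10.45 and 11.10, and then at 4.07 and 6.61. Sox15 was at 7.06 and 6.27, then at 10.90 and 10.35, and then at 6.85 and 8.16. The first step exceeded the second by 8.69 for Foxa1 and 7.09 for Sox15. Each had the largest rise of its list in the first step, so no test is given.

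Among genes of protein degradation, 2 large families fell more often than they rose. Of 50 F-box proteins, the substrate adaptors of SCF ubiquitin ligases, 21 fell and 6 rose (3 without replicate 1 of day 1.5), and of 45 ubiquitin-specific and related proteases 20 fell (13 without replicate 2 of day 1.5 or replicate 1 of day 2.5) and 7 rose. Fbxw4 was switched off, from 9.81 and 9.91 to 3.91 and 3.51. Fbxw24 went from 11.25 and 11.04 to 6.34 and 6.06 and then 3.86 and 4.14. Fbxw16, Fbxw18, Fbxw19, Fbxw21 and Fbxw22 also fell, by 2.78 to 4.67. Near-identical relatives can share probe sequence, so members of this family, and of the Oog and Oas1 families named further on, are uncertain as single genes. Usp28 fell from 10.07 and 10.72 to 5.82 and 6.27 and Uchl1, a hydrolase abundant in oocytes, by 4.62, while Usp25, the closest relative of Usp28, rose from 3.38 and 3.36 to 6.25 and 7.21. In the SUMO list 8 of 16 fell (4 with the mean of all probe sets) and 3 rose (1 without replicate 2 of day 1.5 or either array of day 2.5). The SUMO ligases Pias1 and Pias3 fell by 3.03 and 2.49, and the proteases Senp1, Senp6, Senp7 and Senp8 by 2.00 to 2.92. Senp5 and Senp2 were higher by 1.50 and 1.33, calls lost with the mean of all probe sets (0.41 and 0.74), that of Senp2 also without any 1 of the 4 arrays (1.08 to 1.58) or with no filter. Senp8 was at 6.90 and 7.32, then at 4.20 and 4.18, and back at 7.06 and 6.52 at day 3.5. Ubiquitin-conjugating enzymes did not share this direction, with 9 of 30 higher (5 without either array of day 2.5) and 6 lower.

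Among germ line lists, that of meiosis fell more often than it rose, while the others were near the shares of all genes or small. Of 28 meiosis genes 13 fell and 3 rose, and the synaptonemal complex gene Sycp2 fell by 3.65. Of 26 genes of PIWI and small RNA pathways 8 fell (4 with a filter at 7) and 6 rose, and the Argonautes, which carry microRNAs, were among those that rose. Ago4 was at 4.17 and 4.89, then at 8.95 and 9.37, and then at 5.51 and 6.93. Ago1 rose by 2.86 ± 0.33 and Ago2 by 1.70 ± 0.30. Of 16 PRAME-like and oogenesin entries 5 were on the array and 4 were tested, of which 2 fell and 1 rose (2 with the mean of all probe sets). Oog3 and Oog4 fell by 5.99 and 4.04 and Pramel6 rose by 1.17.

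Pairs of related genes were set side by side, the first taken as the form of oocytes or germ cells and the second as the wider one. This assignment is loose, since some first genes, such as Slc2a3, are also used in other cells. Both genes were tested in 13 pairs. Kpna7, an importin alpha of the egg, was at 9.36 and 10.11 and then at 3.35 and 3.58, while Kpna2 was at 13.80 and 13.34 and then at 13.07 and 12.97 and did not pass (-0.55, adjusted p 0.076). Kpna2 did pass as lower with the replicate block (adjusted p 0.043), without replicate 2 of day 1.5 (-0.78) and under 5 other alternatives, so its lack of a call depends on the setting. The RNA-binding protein Ybx2 fell by 4.40 and its relative Ybx1 differed by 0.09. Some pairs crossed. Cpeb1, which controls cytoplasmic polyadenylation, fell from 6.83 and 7.51 to 3.97 and 3.85, and Cpeb2 rose from 7.53 and 6.92 to 11.41 and 11.61. Btg4, an adaptor of deadenylases, fell by 6.29 ± 0.29, and Btg1 rose by 2.22 ± 0.44. The meiotic cohesin Smc1b fell by 3.82 and Smc1a rose by 0.81, the latter a call lost in the fits of the 4 or 6 control arrays alone and without replicate 1 of day 1.5 or either array of day 2.5 (0.55 to 0.82). Other pairs moved differently. Taf4b differed by -0.51 and did not pass while Taf4 fell by 2.44, and Slc2a3, a glucose transporter, rose by 2.48 with Slc2a1 at -0.57.

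**Figure D5:**
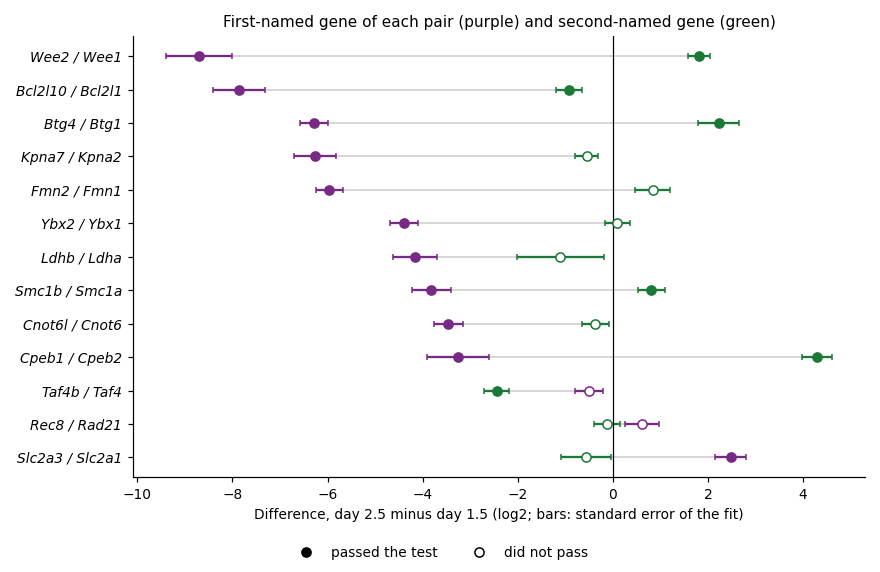
Difference (x axis, log2, day 2.5 minus day 1.5) of the first-named gene (purple) and second-named gene (green) of 13 pairs of relatives; bars are the standard error of the fit, filled points passed the test and open points did not. Kpna7 is at -6.27 beside Kpna2 at -0.55, and Cpeb1 at -3.26 beside Cpeb2 at 4.28.

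Lists of chromatin and repair genes held members in both directions. Of 32 histone variants and chaperones 8 rose and 10 fell, counts of 4 and 4 without replicate 1 of day 2.5 and of 5 and 6 without replicate 2 or in the fit of the 4 compared arrays alone. Without replicate 1 of day 1.5, 5 fell. Macroh2a1, a large histone variant, rose from 3.65 and 5.03 to 8.39 and 8.34. Of 32 genes of homologous recombination and the Fanconi pathway 6 rose and 9 fell (5 without replicate 1 of day 1.5). The subunits of the MRN complex, which senses broken DNA, moved apart, with Mre11a higher by 1.94 and Nbn by 1.14 and Rad50 lower, from 9.11 and 8.99 to 6.70 and 6.32. The helicase Wrn fell by 3.97. In excision and mismatch repair 8 of 32 rose and 9 fell (4 with the mean of all probe sets), and the DNA ligase Lig1 and the scaffold Xrcc1 rose by 2.81 and 2.40.

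Among 27 glutathione transferases and aldehyde and aldo-keto enzymes 4 rose and 9 fell. Gsto1, an omega class transferase, went from 6.58 and 6.73 to 12.13 and 12.11 (5.46 ± 0.36), and Akr1b8, an aldo-keto reductase, was switched on and rose further at day 3.5, from 8.40 and 8.02 to 12.24 and 11.21. Of 16 MHC class I and interferon response genes 3 rose (1 without replicate 1 of day 2.5) and 6 fell (3 with a filter at 7). Oas1c, a member of the oligoadenylate synthetase family, was at 10.95 and 11.23 and then at 4.70 and 4.08 (-6.70 ± 0.29), and Oas1e fell by 4.01. Ifitm3 fell by 3.71 while its neighbour in the family, Ifitm2, rose by 2.27. Imprinted genes had no common direction, 8 higher and 9 lower of 32. The amino acid transporter Slc38a4 and the receptor Igf2r rose by 3.19 and 2.33, and Mest and Asb4 fell by 3.59 and 4.01.

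The step was then set against the next control step, from day 2.5 to day 3.5, which shares the day 2.5 arrays. The difference between the steps passed for 3722 of 9929 genes (37.5%), 1594 with the first step more upward and 2128 more downward. This count rests on the shared arrays, at 2083 without replicate 1 of day 2.5 and 2321 without replicate 2. Some genes rose in the first step and fell in the second. Arg1 went from 9.62 and 8.93 at day 2.5 to 4.30 and 5.96 at day 3.5, and the potassium channel Kcnk5 from 9.57 and 8.81 to 5.78 and 6.59 after a rise of 2.35. Dgat2, which makes triglycerides, rose by 2.35 and then fell by 2.19 (difference between steps 4.54). For the genes named in this paragraph, chosen on the first step, no test of that difference is given. Others dipped at day 2.5. Uvrag was at 7.19 and 7.0 at day 3.5 after 4.57 and 5.12, and its steps differed by -7.02. B4galt6 returned from 3.48 and 4.14 to 6.10 and 5.80, and Pfn2 from 6.34 and 7.66 to 8.96 and 8.71. A further group kept rising: Lrp2, Serpinb6a, an inhibitor of serine proteases, and Akr1b8 rose by 3.71, 2.61 and 3.52 in the second step. Their fitted steps differed by 1.77, 1.61 and 1.51, values that rest on day 1.5 levels near background. Whether their steps were equal is therefore not shown.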

How the data were processed

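Messenger RNA of mouse embryos was measured on 12 one-colour Affymetrix arrays, 2 per group, after 2 rounds of amplification of 0.1 µg of total RNA, as the labels' protocols state. The authors used GCOS 1.2 and GeneSpring 7.3, per the series text, and GCRMA, per the submitters' processing notes. GCRMA corrects the background, normalizes between arrays and summarizes probe sets, so small values are near background and compressed. The deposited values are linear intensities per probe set, and whether GeneSpring changed them further is not stated in the labels. Array medians of the 4 arrays lay between 11.1 and 11.5 and maxima between 42693 and 48216. The number of arrays limits the precision.

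Here each deposited intensity became log2(value + 1), with no further normalization. The platform annotation gave 34945 of 45101 probe sets 1 gene symbol, 932 several and 9160 none, besides 64 controls, and 34741 matched RefSeq. For each gene the probe set of highest mean level was kept, and the 9929 genes that reached 5 on 2 or more arrays were tested. limma 3.58.1 (R 4.3.3; lmFit, contrasts.fit, eBayes) fitted a mean for each of 6 groups on 12 arrays, with 6 residual and 4.51 prior degrees of freedom. Contrasts were day 2.5 minus day 1.5, day 3.5 minus day 2.5, and their difference, with Benjamini-Hochberg adjustment over all tested genes. An exact permutation of 2 arrays against 2 cannot go below p = 0.333. The script was tested on simulated data.

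The members, lists, pairs and motifs were chosen with earlier results of these data known. Named genes were up to 4 largest rises and falls of each list without overlap, members of lists with at most 15 tested genes, the pairs, the 12 largest rises and falls and the 10 highest switched genes outside the set-aside genes. A few other members were chosen after their values were seen: Rrm2, Ulk1, Pfn1, Cfl1, Cfl2, Stim1, Mfn1, Tfam, Mre11a, Nbn, Senp1, Senp6, Spcs1, Spcs2, Stt3a, Rxra, Idh3g, Fbxw16, Fbxw19 and Fbxw22.

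Every group has arrays numbered 1 and 2, and the series text speaks of 2 independent experiments. Deviations of same-numbered arrays correlated at 0.227 between the compared groups and at 0.125 to 0.417 over 15 pairs of groups, so the replicate number was tried as a block. Other alternatives were fewer arrays in the fit, another pseudocount of 16, other filters, centring or quantile normalization, the mean of all probe sets, another variance prior, other switch levels and leaving out each array. Promoters came from RefSeq's GRCm38.p6 table. Figures used matplotlib 3.10.9.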

Additional observations from a re-analysis of the deposited data

How the results depend on the processing

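The numbers of genes that changed, rose and fell stayed within 1.5 times of the reported 5505, 2785 and 2720 under every alternative run. Leaving out 1 array gave 2230 to 2549 higher and 2351 to 2492 lower genes, 4611 to 5041 changed, 78 to 106 switched on, 165 to 208 switched off, and 2083 to 3682 genes whose 2 steps differed. With the replicate number as a block, 3181 genes were higher and 2958 lower, 0 calls of named genes were lost and 24 were gained. Centring or quantile normalization moved the median of all genes from 0.09 to 0.15 and 0.13 and the share of rises among called genes from 50.6% to 52.5% and 51.9%. Switch levels of 6 and 7 gave 374 genes on and 509 off, and the mean of all probe sets gave 37 on.

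Of 558 named genes, 41 to 51 calls were lost when 1 array was left out, 30 with no filter and 20 with the mean of all probe sets. Counts of list members stayed within 1.5 times in 1539 cases and did not in 113. That mean changed the sign of 7 named genes: Adam10 (-0.44), Adam17 (-0.35), Asf1a (-0.69), Cnot6 (0.74), Exosc4 (1.55), Gna13 (-0.0565) and Nr1d2 (-0.0529). For genes that passed in the main fit a change of sign alone was counted, which is not a call in the other direction. Genes that did not pass in the main fit were counted only where they passed in the other direction. Cnot6, at -0.38 in the main fit, was among these. Over all tested genes, 18 calls with that mean were opposite to those of the main fit. The values of Gna13 and Nr1d2 are small beside the median SE of 0.35 in the main fit. The construction of that mean shows why signs can change, since probe sets of a gene can differ. In all, 156 called genes had another probe set called the opposite way. The difference between the steps could not be computed from the 4 compared arrays alone, which hold no day 3.5 sample. The 2 arrays per group limit what can be called, and levels under 5 are near background, where sizes of change are uncertain.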
